A study of Mus musculus with 51 samples.

Results

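The genes described here are 34 listed genes of the red cell lineage and of heme. They comprise 6 regulators and receptors, 8 genes of heme synthesis, 4 of iron uptake, 9 of the membrane and its skeleton, 6 globin-partner, nuclear and enzyme genes, and 1 microRNA gene. They were chosen by name, and 33 of the 34 were analysed, of 23358 entries in the femur RPKM files and 25938 rows in the femur table of normalized counts. RPKM are read numbers corrected for transcript length and for library size. RNA-seq was done on flushed and minced femurs of C57BL/6 mice that were 20 weeks old, with 3 libraries per group. WT mice make their own vitamin C (VitC). Mice with the Gulo tm1Mae knockout cannot, and drank 3.3 g/L VitC for 20 weeks (VitC+) or for 15 weeks followed by 5 weeks without (VitC+/-). All VitC+ and VitC+/- mice thus carry the knockout. A separate experiment used femurs of 11 week old mice with Prrx1-Cre alone (Ctrl) or with Prrx1-Cre and loxP-flanked Tet1 (Tet1 cKO), of Tet2 (Tet2 cKO) or of both genes together (Tet1/2 cKO), again with 3 libraries per group. Prrx1-Cre acts in limb mesenchyme and its descendants, which include bone-forming cells, and not in red cell precursors. Whole femurs are a mixture of cells, so fewer cells of a type and less RNA per cell cannot be told apart here.

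Red cells are made in bone marrow from progenitors that switch on the transcription factors Gata1, Klf1 and Tal1 and answer to erythropoietin through its receptor. Maturing erythroblasts take up iron bound to transferrin, build heme in mitochondria and load it into globin chains, while a spectrin-based skeleton is anchored to band 3 and Rh proteins under the plasma membrane. Gata1, Tal1, Nfe2 and Gfi1b also act in megakaryocytes, and many heme and iron genes serve every cell type. The femurs had been flushed, and how much marrow was left in each bone is not stated.

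Mir144 is the only microRNA gene among the members and had few reads outside the VitC+/- libraries, so its mature sequences are shown, together with that of its neighbour Mir451a, which lies on the same strand and is a red cell microRNA as well. Sequences are from RefSeq (GRCm38.p6, the mm10 build), and capitals mark the seed, bases 2 to 8, with which a microRNA pairs to its targets.
miR-144-5p: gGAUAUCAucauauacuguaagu
miR-144-3p: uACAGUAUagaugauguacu
miR-451a: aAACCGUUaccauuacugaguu
The 3 seeds differ from each other. The Mir144 hairpin spans 66 bases at chr11:78073005-78073070 on the plus strand, and the Mir451a hairpin 72 bases at chr11:78073170-78073241. What was counted are reads of long-RNA libraries over the hairpins and not mature microRNAs.

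Recovered from the RPKM steps, depth was 7.62 M reads in WT replicate 1 and 31.2 to 47.6 M in the 8 other VitC libraries. It was 28.6 to 49.8 M in the 12 Tet libraries. Gulo itself, at low RPKM, did not follow the labels in every library. Its RPKM was 0.522, 0.486 and 0 under the WT label, 0.180, 0.0352 and 0.0294 under the VitC+ label and 0.0126, 0.0141 and 0.0186 under the VitC+/- label. Gulo reads were thus absent from the library labelled WT replicate 3. Among knockout libraries, the one labelled VitC+ replicate 1 held the most. Results are therefore also given without each of these libraries, and without both together with WT replicate 1. In the Tet femurs, Tet1 had normalized counts of 374 to 435 in Ctrl, 532 to 773 in Tet1 cKO and 415 to 485 in Tet1/2 cKO. Tet2 had 2236 to 2512 in Ctrl, 1834 to 2245 in Tet2 cKO and 1851 to 2970 in Tet1/2 cKO. Only 1 exon of each gene is deleted and the counts cover whole genes, so these values check nothing.

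The members were detected throughout: 32 of 33 reached 1 RPKM in all 9 VitC libraries and a normalized count of 10 in all 12 Tet libraries, and Mir144 did so in 5 and 7. Of those 5 VitC libraries, 3 were VitC+/-, so Mir144 passed the filter on low values, which asked for 3 libraries, only through the group where it was high, and its calls are a description rather than support for a rise. RPKM were divided by a scaling factor per library, and levels below are scaled RPKM, which account for transcript length and so can be compared between genes. In VitC+ femurs the highest mean levels were those of Car2 at 118 ± 33.4 (SD, n = 3) and Alas2 at 94.2 ± 34.5. The lowest were 3.99 ± 0.672 for Steap3, 3.35 ± 1.09 for Add2 and 0.909 ± 1.11 for Mir144.

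Withdrawal of VitC was followed by higher RNA levels of membrane and membrane skeleton genes of the red cell and of Fech, Gfi1b and Car1. Most genes of heme synthesis and iron uptake and the regulators Gata1, Klf1 and Tal1 did not pass the test. Every VitC+/- library still lay above every VitC+ library for Klf1 and Tal1, and not for Gata1. In VitC+/- against VitC+, 10 of 33 members were higher and 0 lower at a limma adjusted p under 0.05. Without Mir144 it was 9 of 32. Of all 12586 genes tested, 5.93% were higher and 7.52% lower. The median log2 fold change was 0.63 over the members and 0.02 over all genes, with 28 members above and 5 below 0. Members also varied together within groups, with a median pairwise correlation of 0.47, so counts of members are not counts of independent results. At an unadjusted p under 0.05 there were 19 members and 31.3% of all genes. In 17 members every VitC+/- library was above every VitC+ library, and in 1 every one was below. Such separation was seen in 21.4% and 19.1% of all genes. The calls depended on single libraries, for the members as for all genes. Without VitC+/- replicate 1, 2 members remained past the threshold, without VitC+ replicate 2 it was 4, and without the library labelled VitC+ replicate 1 it was 6. In the same fits, calls over all genes fell from 1692 to 487, 490 and 692. With each of the 9 libraries left out in turn, Tspan33 passed in 9 fits, Ank1 and Cldn13 in 8, Fech in 7, Slc4a1, Rhag and Car1 in 6, Gfi1b in 5 and Ermap in 4. Mir144, whose calls are only a description, also passed in 9.

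Against WT, 14 members were higher and 1 was lower (13 and 1 of 32 without Mir144), where 15.3% and 15.9% of all genes were called in these directions. This comparison shares its VitC+/- libraries with the first. The median log2 fold change was 0.64 over the members and 0.01 over all genes. In 20 members the VitC+/- libraries lay above and in 2 below all WT libraries, compared with 21.4% and 21.3% of all genes. At an unadjusted p under 0.05 there were 22 members and 43.8% of all genes. Without the library labelled WT replicate 3, 12 members were higher and 0 lower, and 2274 of all genes were called instead of 3934. Without it, WT replicate 1 and the library labelled VitC+ replicate 1 together, 7 members were past the threshold against VitC+. In that fit, 806 of all genes were called against VitC+ instead of 1692. Against the single WT library that was left, the median log2 fold change was 0.60 over the members and -0.01 over all genes.

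No member differed past the threshold between WT and VitC+ femurs. In WT against VitC+, 0 of 33 members passed the limma test, as did 0.0% of all genes in either direction, and 2 members had an unadjusted p under 0.05, a level that 22.0% of all genes reached. The members' median log2 fold change was -0.04, that of all genes 0.04. Nfe2 was higher and Slc11a2 lower in every WT library than in every VitC+ library, a separation found in 14.2% and 14.5% of all genes. Without WT replicate 1, the library of lowest depth, 604 of all genes and 0 members passed in WT against VitC+.

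**Figure D1:**
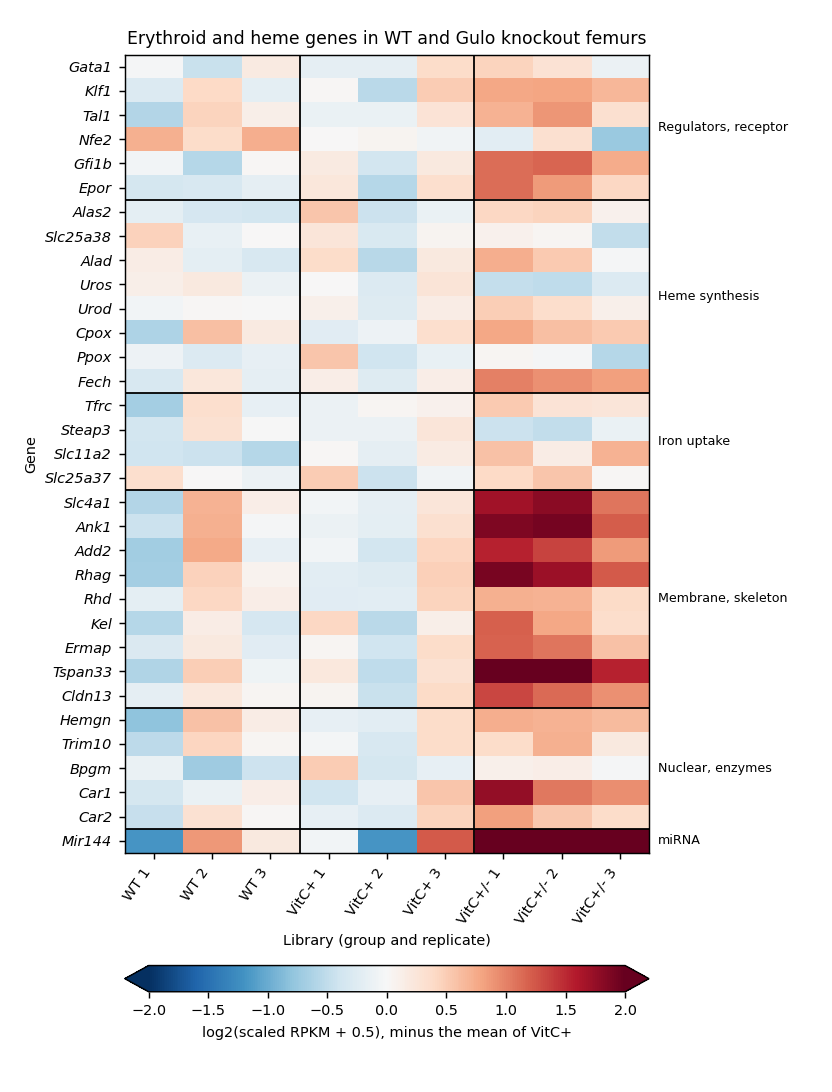
Level of each of the 33 genes in each of the 9 VitC libraries, as log2(scaled RPKM + 0.5) minus the mean of the VitC+ libraries, with red for higher and blue for lower, the scale clipped at 2 on either side, and genes grouped by role. The 3 VitC+/- libraries are red for nearly all membrane genes and Mir144, and pale or mixed for heme synthesis and iron uptake.

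Of the 9 membrane and membrane skeleton genes, 6 were higher in VitC+/- than in VitC+ femurs and 8 were higher than in WT femurs. Called higher among all genes were 5.93% and 15.3% in these comparisons. The log2 fold change was above 0 for all 9 membrane genes, with a median of 1.25 and 1.28 in the 2 comparisons. Tspan33 encodes a tetraspanin of erythroid progenitors (chr6:29694256-29718558). Its scaled RPKM was 7.80, 17.2 and 11.4 in WT, 14.0, 8.34 and 15.1 in VitC+ and 56.3, 51.2 and 36.2 in VitC+/- libraries. Every VitC+/- library thus lay above all WT and VitC+ libraries. The log2 fold change of 1.92 (SE 0.31, adjusted p = 0.0071) against VitC+ and of 1.98 (adjusted p = 0.0024) against WT passed the threshold whichever library was left out.

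Ank1 encodes ankyrin, which ties the spectrin skeleton to band 3 (chr8:22974882-23150496). Its scaled RPKM was 2.90, 7.00 and 4.01 in WT, 3.71, 3.50 and 5.19 in VitC+ and 16.3, 16.7 and 10.1 in VitC+/- libraries. WT and VitC+ libraries overlapped, and all VitC+/- libraries lay above both, with a log2 fold change of 1.67 (SE 0.31, adjusted p = 0.0111) against VitC+ and 1.58 (adjusted p = 0.0056) against WT. Slc4a1, the anion exchanger band 3 itself (chr11:102348820-102365281), had 29.3, 72.4 and 48.7 in WT, 42.4, 39.1 and 52.4 in VitC+ and 142, 155 and 93.6 in VitC+/-. Again the VitC+/- libraries were the 3 highest, at a log2 fold change of 1.51 (SE 0.31, adjusted p = 0.0167) and 1.43 (adjusted p = 0.0089).

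Rhag, the Rh-associated glycoprotein of the ankyrin complex (chr17:40811149-40840754), had a scaled RPKM of 6.24, 14.3 and 10.8 in WT, 8.78, 8.49 and 14.4 in VitC+ and 39.7, 34.8 and 24.7 in VitC+/-. All VitC+/- libraries lay above the others, among which WT and VitC+ overlapped, and the log2 fold change was 1.61 (SE 0.31, adjusted p = 0.0137) against VitC+ and 1.66 (adjusted p = 0.0051) against WT. Cldn13, a claudin of mouse erythroblasts (chr5:134914250-134915530), had 15.0, 19.8 and 17.5, then 17.8, 12.4 and 22.5, and 44.2, 38.1 and 32.6 in the same order of groups. It rose by 1.13 (SE 0.22, adjusted p = 0.0131) and 1.11 (adjusted p = 0.0059) on the log2 scale. Ermap, which carries the Scianna blood group (chr4:119175457-119190011), had 9.80, 13.9 and 10.3, then 12.4, 8.99 and 15.7, and 27.9, 26.0 and 18.4. The gap to VitC+ was narrower here, with a log2 fold change of 0.95 (SE 0.24, adjusted p = 0.0327) against VitC+ and 1.05 (adjusted p = 0.0104) against WT.

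The 3 remaining membrane genes did not pass against VitC+. Add2, the beta subunit of adducin, had a scaled RPKM of 1.82, 5.88 and 2.85 in WT, 3.11, 2.41 and 4.55 in VitC+ and 10.4, 9.06 and 6.28 in VitC+/-. Its VitC+/- libraries were also above all others, and it missed the threshold against VitC+ narrowly (log2 fold change 1.25, adjusted p = 0.0517) while passing against WT (1.28, adjusted p = 0.0266). Kel, the Kell blood group protease, gave a log2 fold change of 0.77 (adjusted p = 0.112) against VitC+ and 1.02 (adjusted p = 0.0290) against WT. Add2 and Kel each lost the call against WT without WT replicate 1, the library labelled WT replicate 3, VitC+/- replicate 1 or VitC+/- replicate 2. Rhd, the Rh blood group protein, gave 0.60 (adjusted p = 0.0992) and 0.48 (adjusted p = 0.123), and the libraries of its groups overlapped.

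**Figure D2:**
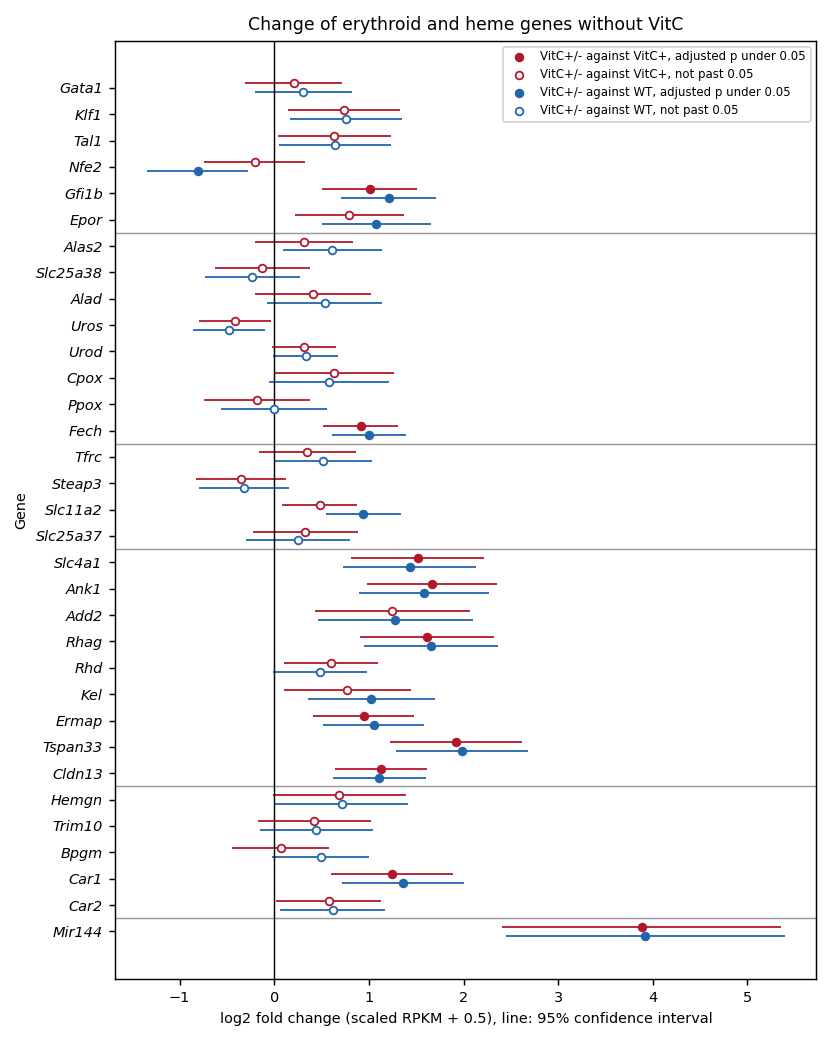
Log2 fold change of the 33 genes in VitC+/- against VitC+ (red) and against WT (blue), on log2(scaled RPKM + 0.5), with lines for the 95% confidence interval and filled points for an adjusted p under 0.05. Filled points gather among the 9 membrane genes and at Mir144, which stands alone at 3.88 and 3.92.

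Of the 6 regulators and receptors, 1 was higher against VitC+, and 2 were higher and 1 lower against WT. Among all genes, 5.93% were higher against VitC+, and 15.3% were higher and 15.9% lower against WT. Gfi1b is a repressor needed for red cell and platelet formation (chr2:28609450-28621982). It had a scaled RPKM of 6.82, 4.63 and 7.25 in WT, 8.13, 5.38 and 8.17 in VitC+ and 16.0, 16.6 and 12.2 in VitC+/- libraries. The VitC+/- libraries lay above all others, at a log2 fold change of 1.01 (SE 0.22, adjusted p = 0.0214) against VitC+ and 1.21 (adjusted p = 0.0046) against WT. Epor, the erythropoietin receptor, had 7.69, 7.84 and 8.75 in WT, 11.8, 6.52 and 12.8 in VitC+ and 22.3, 18.3 and 13.4 in VitC+/-. The VitC+/- libraries lay above all others, but the lowest VitC+/- library was close to the highest VitC+ library. The log2 fold change of 0.79 against VitC+ did not pass (adjusted p = 0.0707), and that of 1.08 against WT did (adjusted p = 0.0132), although not without VitC+/- replicate 1.

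Nfe2, which drives globin genes in red cells and platelet release in megakaryocytes, went the other way. Its scaled RPKM was 94.2, 74.3 and 95.2 in WT, 57.7, 60.0 and 54.9 in VitC+ and 49.8, 72.0 and 34.2 in VitC+/-. The VitC+/- libraries were all below WT, with a log2 fold change of -0.81 (SE 0.24, adjusted p = 0.0299), but lay on both sides of VitC+ (-0.21, adjusted p = 0.593). The fall against WT was lost without WT replicate 1, the library labelled WT replicate 3, VitC+/- replicate 1 or VitC+/- replicate 3, without scaling, and with only the 2 groups in the fit. Gata1, the master regulator of the lineage, had 14.3, 10.5 and 16.6 in WT, 12.8, 12.7 and 18.9 in VitC+ and 20.0, 17.8 and 13.4 in VitC+/-. All 3 groups overlapped, and the log2 fold change of 0.21 against VitC+ had a 95% confidence interval from -0.31 to 0.72. Klf1, the factor that activates adult beta-globin, gave 0.74 (adjusted p = 0.0908) and 0.76 (adjusted p = 0.0533) against VitC+ and WT. Tal1, a partner of Gata1 on DNA, gave 0.63 (adjusted p = 0.138) and 0.64 (adjusted p = 0.0934). For Klf1 and Tal1, as for Gfi1b and Epor, every VitC+/- library lay above every VitC+ library, a separation seen in 21.4% of all genes.

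Promoters of the members were searched for the letters that Gata1 binds best. Of the 33 members, 23 had a promoter in RefSeq (250 bases before to 50 after a start site), and 14 of these 23 (60.9%) held AGATAA or TGATAA on either strand, compared with 12.5% of the 8905 tested genes with a promoter. AGATAA alone was found in 39.1% of these members and 7.93% of genes, and TGATAA in 34.8% and 5.44%. A single site cannot be both, since they differ in their first letter, but a promoter can hold both. The Klf1-type letters CCNCNCCC were in 78.3% of members and 72.3% of genes, while CCACACCC, a special case of CCNCNCCC, was in 0 of 23 members and 4.64% of genes. Of the 10 members past the threshold against VitC+, 4 had a promoter entry, and 3 of these held the motif, as did 11 of 19 of those not past it. A match is only a description of the letters in these windows.

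As examples, the 150 bases before the start site are shown for Gfi1b, Rhag and Ermap, which rose, and for Alas2, which did not pass, 5′ to 3′ on the strand of the gene (GRCm38.p6, RefSeq). Capitals mark AGATAA or TGATAA, or its reverse complement (TTATCT or TTATCA) where the motif is on the other strand.
Gfi1b, chr2:28621983-28622132, minus strand: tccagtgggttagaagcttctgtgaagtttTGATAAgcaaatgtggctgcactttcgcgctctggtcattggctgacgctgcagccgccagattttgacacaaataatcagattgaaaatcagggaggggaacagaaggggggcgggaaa
Rhag, chr17:40810999-40811148, plus strand: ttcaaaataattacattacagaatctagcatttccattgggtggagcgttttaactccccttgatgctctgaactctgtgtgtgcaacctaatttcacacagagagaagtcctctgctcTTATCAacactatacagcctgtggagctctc
Ermap, chr4:119189996-119190145, minus strand: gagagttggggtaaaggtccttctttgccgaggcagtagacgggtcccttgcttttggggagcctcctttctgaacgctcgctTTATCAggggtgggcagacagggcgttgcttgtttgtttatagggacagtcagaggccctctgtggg
Alas2, chrX:150547267-150547416, plus strand: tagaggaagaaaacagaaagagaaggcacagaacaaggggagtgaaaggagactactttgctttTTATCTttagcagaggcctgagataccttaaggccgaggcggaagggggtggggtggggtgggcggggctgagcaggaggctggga
The first letter of the motif lies at -120 in Gfi1b, -31 in Rhag, -67 in Ermap and -86 in Alas2, counted from the start site.

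Of the 8 genes of heme synthesis, 1 was higher in VitC+/- femurs, in both comparisons. Called higher among all genes were 5.93% against VitC+ and 15.3% against WT. The median log2 fold change of the 8 genes was 0.31 against VitC+ and 0.43 against WT. Fech, which inserts iron into protoporphyrin (chr18:64456550-64489066), had a scaled RPKM of 19.1, 28.2 and 21.0 in WT, 26.2, 19.9 and 26.3 in VitC+ and 48.4, 45.5 and 42.8 in VitC+/-. No library of the first 2 groups came near the VitC+/- libraries. The log2 fold change was 0.91 (SE 0.17, adjusted p = 0.0126) against VitC+ and 1.00 (adjusted p = 0.0035) against WT.

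Alas2, the red cell form of the first and rate-limiting enzyme, had 79.2, 71.3 and 70.0 in WT, 133, 66.8 and 82.8 in VitC+ and 120, 123 and 96.4 in VitC+/-. A single VitC+ library, replicate 1, was above all VitC+/- libraries. All VitC+/- libraries lay above all WT libraries. The log2 fold change was 0.31 (95% confidence interval -0.21 to 0.83, adjusted p = 0.386) against VitC+ and 0.61 (adjusted p = 0.0705) against WT. The enzymes in between, Alad, Uros, Urod, Cpox and Ppox, and the glycine carrier Slc25a38 gave log2 fold changes from -0.41 for Uros (adjusted p = 0.128) to 0.63 for Cpox (adjusted p = 0.163) against VitC+. None of these 6 passed in either comparison. Uros was lower in every VitC+/- library than in every WT library, at 8.42, 8.21 and 9.77 after 12.9, 13.6 and 10.8, but missed the threshold (-0.47, adjusted p = 0.0578).

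Iron uptake had 0 of 4 genes past the threshold against VitC+ and 1, a rise, against WT, with medians of 0.34 and 0.39. Rises were called for 5.93% and 15.3% of all genes. Slc11a2, the iron transporter DMT1 of endosomes and gut (chr15:100387900-100423055), had a scaled RPKM of 4.75, 4.63 and 4.16 in WT, 6.47, 5.56 and 7.24 in VitC+ and 9.89, 7.17 and 10.6 in VitC+/-. The order of the groups was WT, VitC+ and VitC+/-, with an overlap between the last 2. The log2 fold change was 0.94 (SE 0.18, adjusted p = 0.0048) against WT and 0.48 (adjusted p = 0.0979) against VitC+. Tfrc, the transferrin receptor, gave 0.35 (adjusted p = 0.334) against VitC+, and Slc25a37, the mitochondrial iron importer mitoferrin, gave 0.33 (adjusted p = 0.392). Steap3, which reduces the iron so that it can leave the endosome, gave -0.35 (adjusted p = 0.292), although its VitC+/- libraries at 2.80, 2.68 and 3.56 were all below the lowest VitC+ library at 3.59.

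Among the 5 globin-partner, nuclear and enzyme genes analysed, 1 was higher in both comparisons, and the medians were 0.57 and 0.62. Called higher among all genes were 5.93% against VitC+ and 15.3% against WT. Car1, the carbonic anhydrase most abundant in red cells (chr3:14766214-14808365), had a scaled RPKM of 28.3, 33.2 and 40.0 in WT, 27.5, 32.4 and 53.7 in VitC+ and 124, 75.6 and 69.5 in VitC+/-. VitC+/- replicate 1 was far above the other 2, which still lay above all WT and VitC+ libraries, and the log2 fold change was 1.24 (SE 0.29, adjusted p = 0.0244) against VitC+ and 1.36 (adjusted p = 0.0079) against WT. Car2, a carbonic anhydrase that osteoclasts also need to dissolve bone, gave 0.57 (adjusted p = 0.145) and 0.62 (adjusted p = 0.0835). Hemgn, a nuclear protein of blood progenitors, gave 0.68 (adjusted p = 0.169), and Trim10, needed for terminal red cell maturation, gave 0.42 (adjusted p = 0.311) against VitC+. Bpgm, which makes the bisphosphoglycerate that lowers the oxygen affinity of hemoglobin, gave 0.07 with a 95% confidence interval from -0.45 to 0.58.

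The Mir144 hairpin had 0, 4 and 2 reads in WT, 1, 0 and 7 in VitC+ and 49, 45 and 32 in VitC+/- libraries. At the depth of WT replicate 1, a single read was worth 1.99 RPKM, so its 0 says little. Even so, the lowest VitC+/- library had more reads than the 6 others put together. As a description of a gene that the filter kept only through VitC+/-, the limma log2 fold change was 3.88 (SE 0.66, adjusted p = 0.0081) against VitC+ and 3.92 (adjusted p = 0.0030) against WT. With reads summed per group and scaled, 126 reads stood against 8 in VitC+, a ratio of 15.3 with a 95% interval from 7.51 to 36.1 that covers counting error only, and against 6 in WT, a ratio of 15.0 (6.71 to 41.7). Mir451a, the neighbour, had 0, 23 and 43 reads in WT, 26, 18 and 49 in VitC+ and 102, 91 and 84 in VitC+/-. Here too each VitC+/- library was above all others, but the ratio was smaller, at 2.89 (2.27 to 3.69) against VitC+ and with an interval from 2.29 to 3.99 against WT. The limma log2 fold change of Mir451a was 1.58 against VitC+ (adjusted p = 0.338) and 3.02 against WT (adjusted p = 0.0533), and neither passed.

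**Figure D3:**
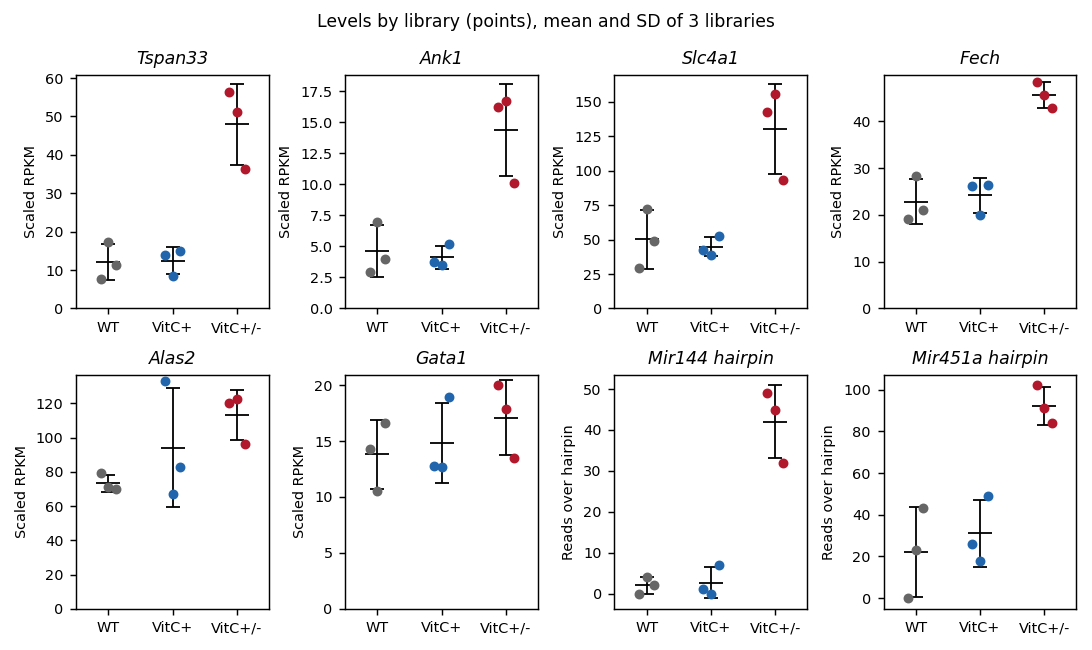
Scaled RPKM of 6 genes and reads over the Mir144 and Mir451a hairpins in each library (points), with the mean and SD of 3 libraries, for WT, VitC+ and VitC+/- femurs. Tspan33, Ank1, Slc4a1 and Fech have all 3 VitC+/- libraries above the rest, while those of Alas2 and Gata1 overlap with VitC+.

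Of 12 globin genes listed, 7 could be tested, and 1 was higher and 0 lower in each comparison. Their median log2 fold change was 0.25 against VitC+, with 4 above and 3 below 0, and 0.44 against WT, with 7 above 0. Called higher among all genes were 5.93% against VitC+ and 15.3% against WT. Hbb-bs, by far the most abundant in these files, had a scaled RPKM of 2781, 1438 and 2276 in WT, 4776, 2575 and 3007 in VitC+ and 3651, 3610 and 1708 in VitC+/-. The ranges of all 3 groups overlapped in part, the highest value was in the library labelled VitC+ replicate 1, and the log2 fold change was -0.24 (adjusted p = 0.714) against VitC+ and 0.44 (adjusted p = 0.421) against WT. Hbb-b1 was higher in VitC+/- (log2 fold change 1.05, adjusted p = 0.0331), but at a mean of 3.95 scaled RPKM compared with 1.69 in VitC+. Globin genes are near-identical copies whose reads can be split or lost in counting, so their single values are uncertain. The sum over the globins was 1453 to 2836 in WT, 2609 to 4837 in VitC+ and 1732 to 3696 in VitC+/-.

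Other genes of the same pathways changed in part. Over all genes, 5.93% were higher and 7.52% lower against VitC+. Among 12 other red cell membrane genes tested, 3 were higher and 0 lower against VitC+, with the largest rises for Sptb, the beta chain of red cell spectrin (1.45, adjusted p = 0.0470), and the glucose transporter Slc2a1 (1.20, adjusted p = 0.0274). Among 16 red cell enzyme and reticulocyte genes, 4 were higher and 0 lower, led by Tent5c (1.07, adjusted p = 0.0328) and the amino acid transporter Slc43a1 (0.82, adjusted p = 0.0247). Of 12 other heme and mitochondrial iron genes, 3 were higher and 0 lower. Abcb10, a partner of mitoferrin, rose by 0.94 (adjusted p = 0.0382) and Fam210b by 0.72 (adjusted p = 0.0164) on the log2 scale.

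Of 18 other erythroid regulators, 1 was higher and 1 lower against VitC+, namely the cell cycle factor E2f2 (0.86, adjusted p = 0.0473) and Lmo2, a bridging protein of the Tal1 complex (-0.69, adjusted p = 0.0407). Against WT, 2 of the 18 were higher and 7 lower, among them Myb (-1.49, adjusted p = 0.0064), a factor of early progenitors, Bcl11a (-1.06, adjusted p = 0.0076), the repressor of fetal globin, and Zfpm1 (1.13, adjusted p = 0.0273), the partner FOG of Gata1. Over all genes, 15.3% were higher and 15.9% lower against WT. Of 11 iron storage, export and sensing genes, 1 was higher and 1 lower against VitC+. Erfe, the hormone erythroferrone that erythroblasts release under erythropoietin, rose by 1.94 on the log2 scale (adjusted p = 0.0407), from a mean of 0.622 to 4.75 scaled RPKM. The iron exporter Slc40a1 fell by 0.87 (adjusted p = 0.0394). Of 6 genes of heme breakdown and export, Hmox2 was lower (-0.50, adjusted p = 0.0483).

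Markers of other cells moved in the same libraries. Over all genes, 7.52% were lower and 5.93% higher against VitC+. Of 12 megakaryocyte genes, 6 were lower and 0 higher in VitC+/- than in VitC+ femurs, with a median log2 fold change of -1.16, and their summed scaled RPKM was 271 to 737 in VitC+ and 147 to 201 in VitC+/-. Of 8 mast cell, basophil and eosinophil genes, 3 were lower, with a median of -2.27 and sums of 76.1 to 375 and 24.3 to 36.6. The neutrophil list had 3 of 10 genes lower and sums of 29750 to 47021 and 7147 to 24059, against 52982 to 74781 in WT. B-cell precursor genes were lower for 8 of 9 (median -2.23). Osteoclast genes were higher for 5 of 10 (median 0.78).

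Erythroblastic island macrophages, which nurse red cell precursors, had 2 of 10 genes lower and a sum of 179 to 302 in VitC+ and 184 to 312 in VitC+/-, nearly the same range. Of 10 proliferation genes, 0 were past the threshold against VitC+ (median 0.13), and 3 were lower against WT (median -0.59, with 10 below 0). Of 12 osteoblast and osteocyte genes, 5 were lower against VitC+ (median -1.56), and 3 were lower and 1 higher against WT (median 0.08). Of 6 adipocyte genes, 0 passed against VitC+ (median 1.81), and 5 were higher against WT (median 2.74). Of 7 muscle genes, 0 passed in either comparison (medians -1.31 and -1.54). Against WT, 10 of 10 neutrophil, 5 of 12 megakaryocyte, 5 of 8 mast cell, basophil and eosinophil, 8 of 9 B-cell precursor and 2 of 10 island macrophage genes were lower, and 9 of 10 osteoclast genes were higher. Over all genes, 15.9% were lower and 15.3% higher against WT. RPKM are shares of a library, and the part that these other cells had in the rise of the red cell genes was not tested.

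The size of the rise differed between the libraries. Relative to the VitC+ mean, the median log2 level of the 33 members was 0.73, 0.70 and 0.39 in the VitC+/- libraries, -0.35, 0.23 and -0.02 in the WT libraries and 0.01, -0.28 and 0.27 in the VitC+ libraries. VitC+/- replicate 3 was the lowest of its group for 30 of 33 members. VitC+ replicate 2 was the lowest for 26 and VitC+ replicate 3 the highest for 25.

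In the Tet femurs, loss of Tet1, Tet2 or both in the bone lineage was followed by no change of these genes that passed the test. In all 3 comparisons with Ctrl, 0 of 33 members passed with limma, and 0 had an unadjusted p under 0.05, a level that 2.28% of all genes reached in Tet1 cKO, 2.19% in Tet2 cKO and 5.05% in Tet1/2 cKO. On the recovered reads, which left out Tet1 cKO replicate 3, edgeR and DESeq2 also called 0 members. Among all 16780 genes, limma called 0.00596% in each direction for Tet1 cKO and for Tet2 cKO, and 0.0% for Tet1/2 cKO, where edgeR called 0 and DESeq2 13 genes. The median log2 fold change of the members was -0.24 in Tet1 cKO, -0.20 in Tet2 cKO and 0.33 in Tet1/2 cKO, while that of all genes was -0.01 each time. The 3 comparisons share the Ctrl libraries. No member had all libraries of Tet1 cKO above or below Ctrl (4.28% and 3.54% of all genes did), nor of Tet2 cKO (2.54% and 3.43%). In Tet1/2 cKO, 33 of 33 members were above 0, but in 0 did the groups separate, compared with 7.37% of all genes that were higher and 10.0% that were lower in every library. The median pairwise correlation of members within the Tet groups was 0.91, so these 33 are not independent results. The lowest adjusted p of a member in Tet1/2 cKO was 0.723, for Car1, at a log2 fold change of 0.72 with a 95% confidence interval from -0.35 to 1.78.

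The libraries of each Tet group were spread widely. Slc4a1 had normalized counts of 77734, 30079 and 42248 in Ctrl, 20542, 44158 and 41323 in Tet1 cKO, 21249, 66144 and 42128 in Tet2 cKO and 39292, 59877 and 76274 in Tet1/2 cKO. Every group spans a wide and shared range. Alas2 had 48703, 15830 and 24309, then 10655, 23101 and 24399, then 11938, 35328 and 25548, and 23642, 40589 and 48277 in the same order. For both genes, replicate 1 was the highest of Ctrl and the lowest of each cKO group.

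This held across the list. Ctrl replicate 1 was the highest of its group for 33 of 33 members, and replicate 1 was the lowest of Tet1 cKO for 30, of Tet2 cKO for 32 and of Tet1/2 cKO for 32. In the median over members, the highest library of a group was 1.96 times the lowest in Ctrl and 2.90 times the lowest in Tet2 cKO, with Tet1 cKO and Tet1/2 cKO in between. Relative to the Ctrl mean, the median log2 level of the members ran from -1.08 in Tet2 cKO replicate 1 to 0.71 in Tet1/2 cKO replicate 3. Without Ctrl replicate 1, the median log2 fold change of Tet1 cKO turned to 0.02 and that of Tet2 cKO to 0.12, so neither direction can be read. Slc11a2 varied less, with normalized counts of 2517, 2069 and 1887 in Ctrl, 2341, 2716 and 2813 in Tet1 cKO, 2058, 2442 and 2674 in Tet2 cKO and 1753, 2380 and 2531 in Tet1/2 cKO, and its groups overlapped as well.

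Skeletal muscle genes summed to normalized counts of 3156 to 435194 in Tet1/2 cKO and 110425 to 482114 in Ctrl libraries, neutrophil genes to 1166676 to 2666578 and 826806 to 1252282, and proliferation genes to 165752 to 180483 and 90583 to 159382. Of these lists, 0 of 8, 0 of 10 and 0 of 10 genes passed the test in Tet1/2 cKO. Their part in the levels of the members was not tested.

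**Figure D4:**
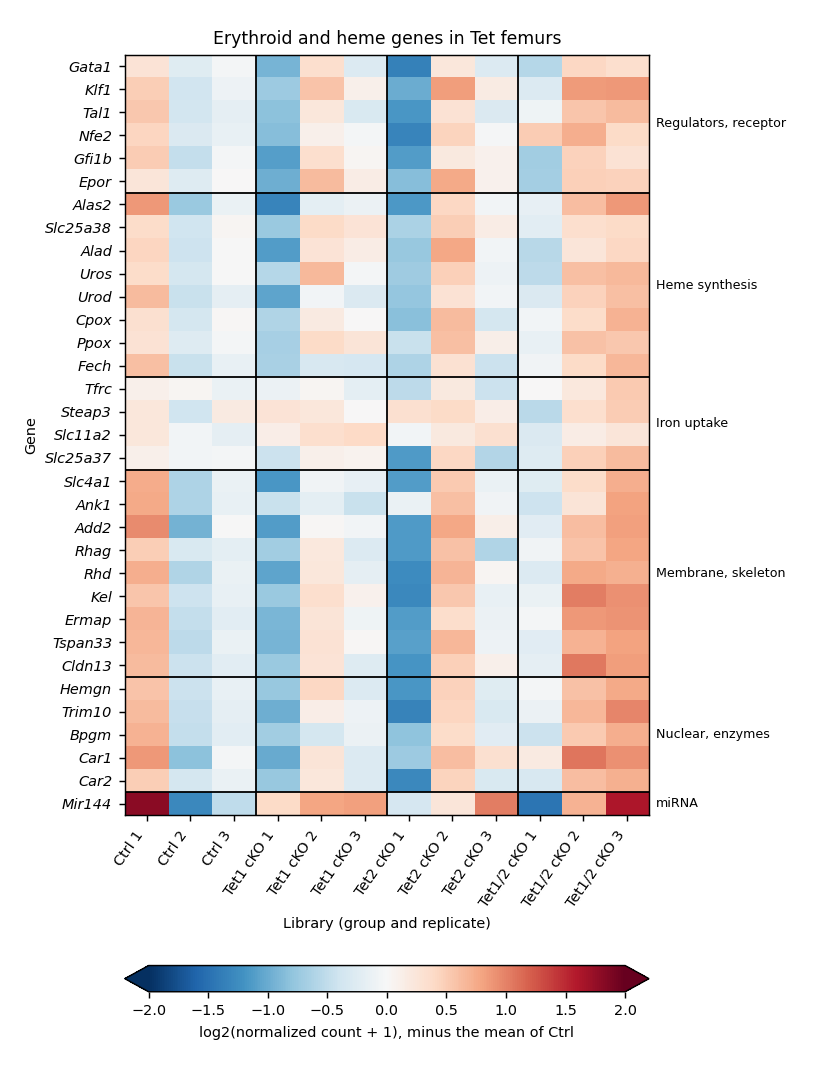
Level of each of the 33 genes in each of the 12 Tet libraries, as log2(normalized count + 1) minus the mean of the Ctrl libraries, with red for higher and blue for lower, clipped at 2 on either side. Nearly whole columns are red (Ctrl 1, Tet1/2 cKO 2 and 3) or blue (Tet1 cKO 1, Tet2 cKO 1, except at Steap3 among others), and each group holds libraries of different colour.

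DNA hydroxymethylation (5hmC, the product of Tet enzymes, which need VitC) was mapped by hMeDIP-seq, and peaks with their midpoint within 30 kb of a member's start site were counted. There was 1 peak list per group with pooled replicates, so the numbers are a description. The VitC femur lists hold no peaks on chromosome X, which leaves out Gata1 and Alas2. Near the other 31 members there were 279 peaks in VitC+ and 252 in VitC+/- femurs, a ratio of 0.903, as compared with 0.915 over all genes. Of the 31, 11 members had more peaks without VitC, 17 fewer and 3 as many, and of all genes 26.7% had more and 55.4% fewer. Among the members that rose, Ank1 went from 2 to 8 peaks and Slc4a1 from 3 to 6, while Tspan33 went from 9 to 6, Cldn13 from 3 to 0 and Gfi1b stayed at 4. In Tet1/2 cKO femurs, 146 peaks stood against 294 in Ctrl, a ratio of 0.497 (0.577 over all genes). Here 31 of 33 members had fewer peaks and 0 had more, where 90.3% of all genes had fewer.

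MC3T3-E1 is a line of calvarial pre-osteoblasts, not of blood cells. With VitC, these cells had 246 5hmC peaks near the 33 members, and without it 217, a ratio of 1.13 where all genes gave 1.59. The histone marks were mapped after a shorter culture than 5hmC. H3K27me3, the Polycomb mark of silent genes, was found at 168 peaks with and 106 without VitC, a ratio of 1.58 (1.16 over all genes), but the length covered was lower with VitC, at a ratio of 0.745 (0.664). The median member had 5 such peaks with VitC and 3 without, and the median gene 1 and 1. H3K9me3, a mark of heterochromatin, gave 19 peaks with and 46 without VitC, a ratio of 0.413 (0.631). With and without VitC, 20 and 18 members (60.6% and 54.5%) had 0 peaks, as did 63.4% and 50.0% of all genes.

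**Figure D5:**
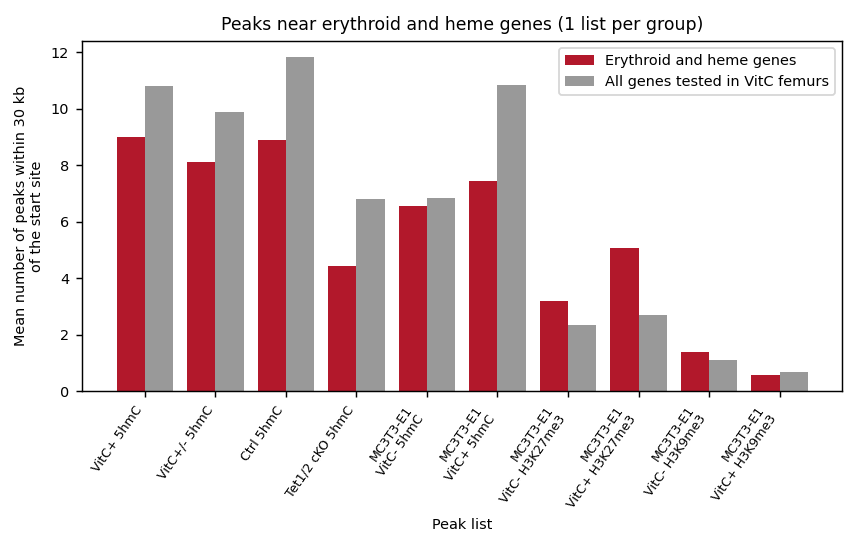
Mean number of peaks within 30 kb of the start site for the red cell and heme genes (red) and for all genes tested in the VitC femurs (grey), in each of the 10 peak lists. The red bars are below the grey ones in every 5hmC list and above them for H3K27me3 in MC3T3-E1 cells.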

How the data were processed

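RNA-seq of femurs was used in 9 VitC libraries and 12 Tet libraries, labelled as biological triplicates. For the VitC femurs, reads were aligned to mm10 with STAR 2.6.0b-1 by the authors, who deposited RPKM per gene. For the Tet femurs the authors deposited a signal of gene counts (featureCounts 1.6.3) divided by DESeq2 2.11.40.2 size factors. Peaks were called by the authors with MACS2 on pooled replicates, and the deposited lists give the fold enrichment as a ratio over background, −log10 q values and, for MC3T3-E1 5hmC, the pileup signal. The histone lists go down to a −log10 q of 1.01.

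Each library's RPKM were scaled by its median ratio to the geometric mean of the libraries, and log2(value + 0.5) was tested with limma 3.58.1 (eBayes with trend) for the 12586 genes with at least 1 RPKM in 3 libraries. Normalized counts were tested as log2(value + 1) for the 16780 genes with at least 10 in 3 libraries. One fit held all libraries of an experiment. Benjamini-Hochberg adjustment ran over all genes, and adjusted p-values under 0.05 passed. Whole reads recovered from 100% of the normalized counts (within 0.01) were tested with edgeR 4.0.16 and DESeq2 1.42.0, without Tet1 cKO replicate 3, whose divisor is close to 1. Hairpin reads were recovered from the RPKM steps. Fold changes on log2(value + pseudocount) understate changes of low genes. Steps were tested on simulated data.

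The members and all gene lists were chosen with earlier results of these data known. All members were described, and of the other lists the 2 largest rises and falls past the threshold could be named. The labels do not say whether replicate numbers pair libraries, and the numbers were not read as pairs. Mir451a, named as the neighbour of Mir144, and the examples among the peaks were chosen after their values were seen. Computations ran in R 4.3.3 and in Python 3.11.15 (pandas 2.3.3, numpy 2.4.6, matplotlib 3.10.9, scipy 1.17.1). Of the 34 genes listed, 1 is not reported here.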

Additional observations from a re-analysis of the deposited data

How the results depend on the processing

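Leaving out each library in turn gave 2 to 13 members, Mir144 included, past the threshold in VitC+/- against VitC+ and 11 to 21 against WT. Over all genes these fits gave 487 to 2296 calls against VitC+, 2274 to 4113 against WT and 0 to 604 for WT against VitC+. Tspan33 was past the threshold against VitC+ in 9 of 9 such fits. So was Mir144, but the filter kept it only through VitC+/-, so its calls are a description and no support. The members' medians ranged from 0.50 to 0.80 against VitC+, from 0.61 to 0.87 against WT and from -0.22 to 0.13 for WT against VitC+. Without WT replicates 1 and 3 and VitC+ replicate 1, a setting chosen after seeing the data, a single WT library was left. The members' median was then 0.60 against WT, and that of WT against VitC+ was 0.26. The fit with a replicate block gave 10 and 16 members, as compared with 10 and 15 without it, and over all genes 2169 instead of 1692 calls against VitC+, 4465 instead of 3934 against WT and 774 instead of 0 for WT against VitC+. Correlations of same-numbered libraries ran from -0.19 to 0.46 in the VitC and from -0.57 to 0.53 in the Tet femurs, and 4 of 9 and 6 of 18 were over 0.1, so the numbers were not read as pairs. Other scalings, pseudocounts and filters gave 9 to 11 members against VitC+ and 13 to 16 against WT, and a fit of only the 2 groups compared gave 13 and 16, the latter with 0 lower. Over all genes, those settings gave 876 to 1700 calls against VitC+ and 2716 to 3953 against WT. The fit of only the 2 groups gave 2088 and 2765. Without scaling, the median of all genes against VitC+ moved from 0.02 to 0.13 and the calls over all genes from 1692 to 876. In the Tet femurs the members' medians ranged from -0.48 to 0.03 for Tet1 cKO, -0.53 to 0.19 for Tet2 cKO and 0.10 to 0.62 for Tet1/2 cKO when each library was left out, with 0 members past the threshold throughout. With only peaks of a −log10 q of at least 5, the peak ratio of Tet1/2 cKO over Ctrl was 0.381. By covered length, the ratios of MC3T3-E1 cells with over without VitC were 1.37 for 5hmC and 0.745 for H3K27me3, the latter below 1. For these the cause was not tested. The histone lists had too few peaks at that q for a ratio. Among single genes, 57 values lost and 26 gained the threshold under an alternative. Another 20 did not pass but moved by more than the SD within groups, and 3750 stayed the same. Depth limits WT replicate 1 most.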
